A study of Mus musculus with 6 samples.

Results

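ETS family transcription factors were examined in PA6 cells, a murine stromal line used as a feeder layer for embryonic stem cells. They were represented by 9 genes, chosen by name: ETV1, ETV4, ETV5, ETV6, ETS1, ETS2, ELK1, ELK3 and ERF. Every probe carrying one of these names was taken, which gave 21 probes out of 45281 on the array, for 9 of 30854 gene names. Confluent PA6 monolayers spent 3 h in serum-free medium that held no growth factor (-GFs), recombinant FGF2 at 20 ng/ml, or recombinant BMP4. The labels give a BMP4 dose of 10 ng/ml, while the methods on the co-cultures give a lower one. Each biological replicate comprised 1 well of each kind, and with 2 replicates there were 6 arrays (Illumina MouseWG-6 v2.0), 1 for each well. All groups were thus the same cell line, free of serum, at a single time. The comparison with -GFs addresses the early transcriptional response of the feeder cells themselves to FGF2 or BMP4.

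ETS proteins share a winged helix-turn-helix domain that binds DNA around a GGAA core, and many of them are endpoints of receptor tyrosine kinase signaling through RAS and ERK. ERK phosphorylates several members and thereby changes their activity, without any change in their mRNA. Others, above all the PEA3 group (ETV1, ETV4 and ETV5), are known as genes whose transcription follows FGF receptor activity, in part through relief from Capicua (CIC), a repressor that binds short sites with a TGAATG or TCAATG core and is inactivated by ERK. ETV6 and ERF act as repressors, and ELK1 and ELK3 are ternary complex factors that bind DNA together with SRF.

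Promoter sequence is shown for Etv5, the member with the largest change (values follow), and its 2 annotated starts differ in the CIC core. RefSeq windows on GRCm38.p6 were held for 7 of the 9 genes, and no entry was held for Etv4 and Ets1. The 250 bases before each Etv5 start are given 5′ to 3′ on the minus strand, with capitals marking TGAATG on either strand. The motifs searched were chosen after the sequences had been seen.
Etv5, first start, chr16:22439571-22439820: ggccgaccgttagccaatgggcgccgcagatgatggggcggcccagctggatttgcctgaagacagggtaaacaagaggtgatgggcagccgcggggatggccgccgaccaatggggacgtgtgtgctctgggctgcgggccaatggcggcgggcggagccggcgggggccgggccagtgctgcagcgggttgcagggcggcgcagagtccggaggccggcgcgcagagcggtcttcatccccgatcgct
Etv5, second start, chr16:22438369-22438618: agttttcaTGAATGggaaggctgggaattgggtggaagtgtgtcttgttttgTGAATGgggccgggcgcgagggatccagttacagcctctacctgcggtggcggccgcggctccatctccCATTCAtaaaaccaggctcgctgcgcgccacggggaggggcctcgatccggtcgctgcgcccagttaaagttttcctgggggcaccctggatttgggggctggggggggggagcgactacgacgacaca
The second window lies downstream of the first start, within the Etv5 gene, and whether it is exonic or intronic was not given by the table used. It held 3 matches to TGAATG, at 242, 198 and 129 bases before the start, and the first window held 0. TGAATG was present at least once in 10.9% of all 32851 promoter windows of this length, and at least 3 times in 0.131% of them. TCAATG, present in 7.25% of all windows, was matched once in the Etv6 window and in neither Etv5 window. The ETS site GGAAGT, present in 19.7% of all windows, was matched once before the second Etv5 start. Both Etv1 windows held neither CIC core. These matches describe letters in a window and do not show binding. Only the core was searched and the bases beside it were not checked, so a match need not be a complete CIC site.

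A probe was called detected on an array at a detection p-value below 0.05, which compares it with the array's negative controls. Of the 21 probes, 12 were detected on at least 1 array and 3 on all 6, namely the brightest probes of ETS1, ETS2 and ELK3. Of the genes, 7 were detected on each -GFs array, 8 on each FGF2 array, and 5 and 6 on the BMP4 arrays. Array medians ran from 153.4 to 168.1 intensity units, and between 15509 and 16459 probes were detected per array. Stromal and fibroblast markers were detected on all arrays (10 of 10 tested), whereas the endothelial markers PECAM1, CDH5, TIE1, ERG and FLI1 and the stem cell markers NANOG and ZFP42 were detected on none. Of the remaining lists, only KDR and TEK of 7 endothelial, CSF1R of 6 haematopoietic, CDH1 and ELF3 of 6 epithelial, and POU5F1 and DPPA5 of 4 stem cell markers were detected well enough to be tested. TEK, CDH1 and POU5F1 were, like the stromal markers, detected on all 6 arrays. No marker passed an adjusted p of 0.1 in limma with FGF2 or BMP4, and 1, PDGFRA, had an unadjusted p below 0.05 with FGF2. In the limma model that pairs the wells of a replicate (replicate block), 4 of the 10 stromal markers passed with FGF2, against 37.7% of all genes in either direction. CXCL12 (log2 fold change -0.43, adjusted p = 0.0266), PDGFRA (-0.39, 0.0492) and COL1A1 (-0.37, 0.0969) were lower and PDGFRB (0.37, 0.0560) higher, and the part of these values in the ETS results was not tested.

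**Figure D1:**
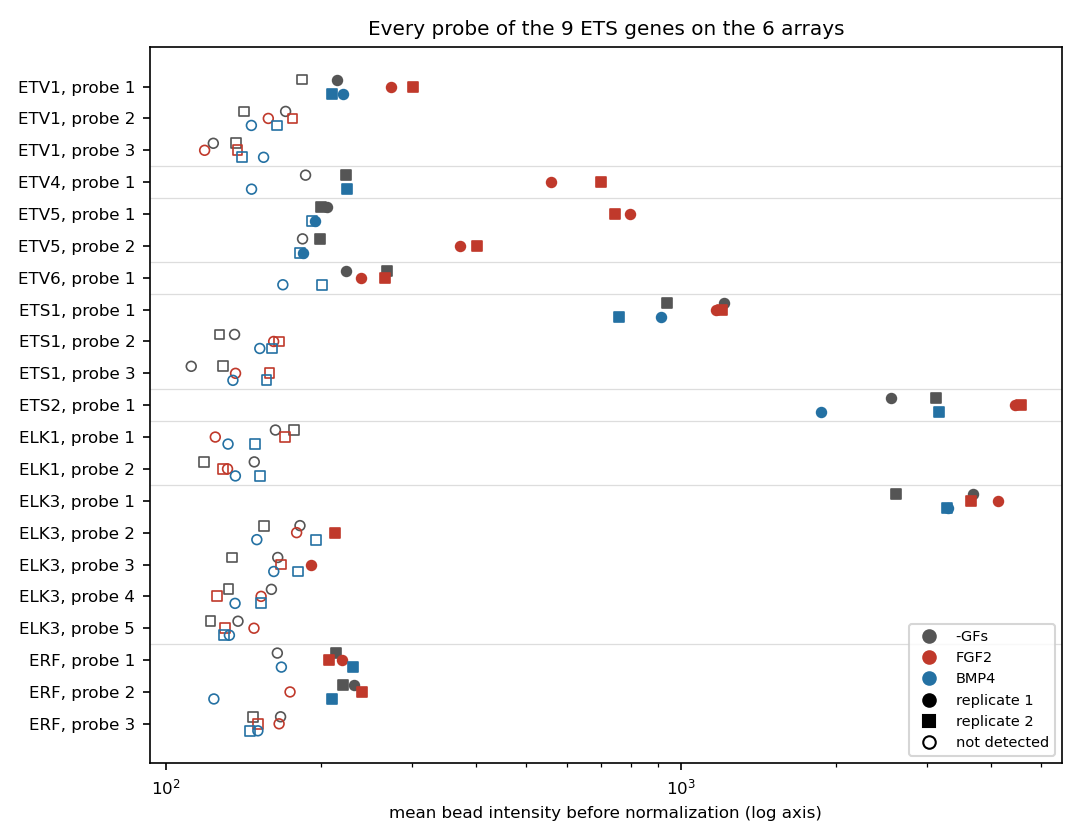
Mean bead intensity before normalization (log axis) of each of the 21 probes on the 6 arrays, with filled symbols where the probe was detected; circles are replicate 1 and squares replicate 2. Both ETV5 probes and the ETV4 probe are brighter on the 2 FGF2 arrays than on any other array, and both ELK1 probes are undetected throughout.

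The response to FGF2 was led by ETV5 and ETV4. ETV5 rose 3.93-fold and ETV4 3.14-fold within 3 h of FGF2, and neither passed the test with BMP4. A gene was called modulated at an absolute log2 fold change above 1 and an adjusted p below 0.1 in limma, over the 11872 genes that had a probe detected in both replicates of some group. By this rule 2 of the 8 ETS genes tested were up-regulated by FGF2, against 2.28% of all genes, and none was down-regulated. The ETV4 and ERF probes used entered the test only through the FGF2 arrays, so this count describes the genes that passed detection. ELK1 was the 1 gene not tested, since no probe of it was detected.

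ETV5 encodes a PEA3 group activator. Its brighter probe gave intensities of 205.4 and 199.9 in -GFs, 795.8 and 742.6 with FGF2, and 194.4 and 192.0 with BMP4. The FGF2 arrays stood far above the other 4, which lay close together and near the detection limit (the lowest detected intensities were 180.1 to 200.9). After cubic spline normalization, the log2 level was 7.65 ± 0.07 in -GFs, 9.62 ± 0.02 with FGF2 and 7.61 ± 0.10 with BMP4 (SD, n = 2 each). The log2 fold change for FGF2 was 1.98 (SE 0.14, 95% interval 1.63 to 2.32, limma adjusted p = 0.00371). ETV5 ranked 33rd from the top of all genes by this value, and the difference was 2.05 in replicate 1 and 1.91 in replicate 2. With background correction (neqc) in place of the spline, the same arrays gave 9.32-fold. The second ETV5 probe measured 183.9 and 198.7 in -GFs, 372.0 and 401.6 with FGF2, and 184.4 and 182.1 with BMP4. Its FGF2 arrays were likewise separate from the rest. The log2 fold change was 1.06 (SE 0.16, limma adjusted p over every probe = 0.0196), smaller than that of the first probe. This second probe entered the test only through the FGF2 arrays, being detected on 1 of 2 arrays in each other group.

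ETV4 encodes another PEA3 group activator. Its single probe measured 186.4 and 223.0 in -GFs, 557.5 and 699.6 with FGF2, and 146.4 and 224.4 with BMP4. Replicate 2 was the brighter of each pair, and both FGF2 arrays exceeded the others by more than this spread. The log2 fold change was 1.65 (SE 0.25, 95% interval 1.06 to 2.24, limma adjusted p = 0.0177), and 1.64 and 1.66 within the 2 replicates. ETV4 entered the test only because it was detected on both FGF2 arrays, being detected on 1 of 2 arrays in each of the other groups. With neqc the change was 6.95-fold. Without FGF2 replicate 2 the log2 fold change was 1.44 and the gene was no longer called (limma adjusted p = 0.158).

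ETV1, the remaining gene of the PEA3 group, passed the adjusted p but not the fold threshold. Its intensities were 214.2 and 183.4 in -GFs, 272.6 and 301.7 with FGF2, and 220.0 and 209.7 with BMP4, so that the FGF2 arrays were again the brightest without overlap. The log2 fold change was 0.59, or 1.51-fold (SE 0.16, 95% interval 0.22 to 0.97, limma adjusted p = 0.0794). With neqc it was 1.30 and past both thresholds (adjusted p = 0.0527). The other 2 ETV1 probes were detected on no array. Levels of different probes were not compared, so no order of abundance is given within the group.

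**Figure D2:**
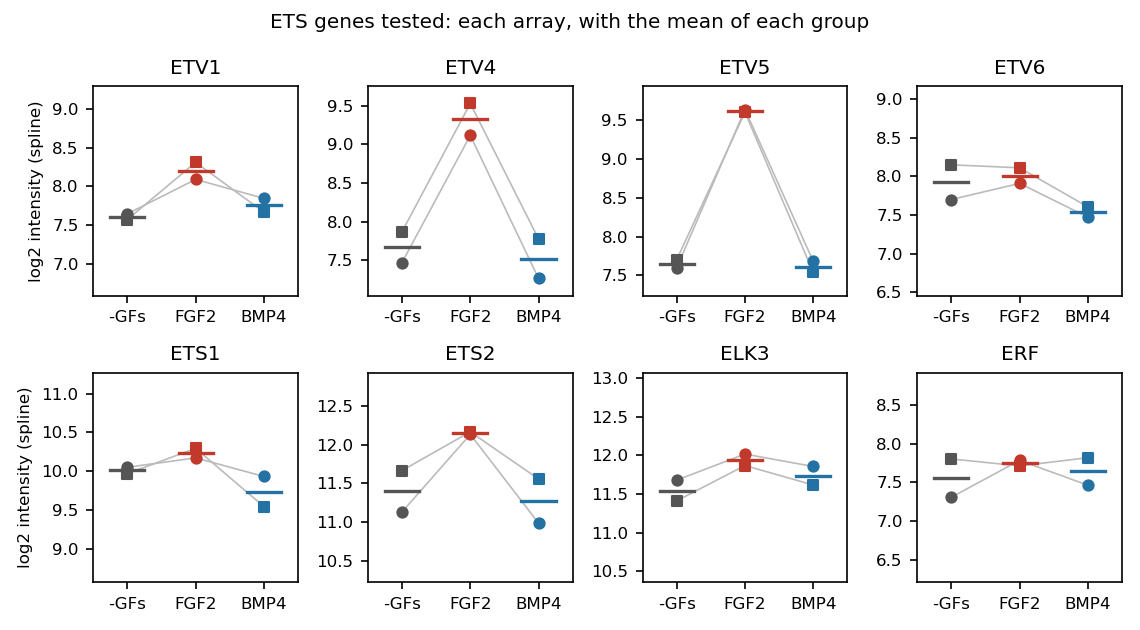
Spline-normalized log2 intensity of the 8 ETS genes tested in -GFs, FGF2 and BMP4, with 1 point per array, a bar at the mean of each group and grey lines joining arrays of the same replicate; each panel spans the same number of log2 units around its own centre. ETV5 and ETV4 show the FGF2 arrays apart from the rest, while ETV6 and ERF overlap between -GFs and FGF2.

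ETS1 and ETS2, the founding members of the family and direct substrates of ERK, were well above background on every array. ETS2 measured 2549.3 and 3120.3 in -GFs, 4437.2 and 4558.3 with FGF2, and 1866.0 and 3160.5 with BMP4. The FGF2 arrays were nearly equal and the brightest, whereas the replicates of the other groups were far apart. The log2 fold change for FGF2 was 0.75, or 1.68-fold (SE 0.25, 95% interval 0.15 to 1.35). It did not pass (limma adjusted p = 0.133), and with the replicate block its adjusted p was 0.00124. ETS1 measured 1211.7 and 940.0 in -GFs, 1167.1 and 1200.9 with FGF2, and 911.6 and 756.2 with BMP4. The raw -GFs and FGF2 intensities overlapped, and the normalized ones did not. The log2 fold change of ETS1 for FGF2 was 0.22 (95% interval -0.20 to 0.65, limma adjusted p = 0.501), an interval that leaves out the change of ETV5 and ETV4.

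Of the ternary complex factors, ELK3, which can repress in the absence of ERK activity, was bright on every array. It measured 3691.6 and 2608.6 in -GFs, 4118.6 and 3659.4 with FGF2, and 3299.2 and 3285.2 with BMP4. The raw -GFs and FGF2 intensities overlapped, and the normalized values did not (11.68 and 11.41 against 12.02 and 11.87). The log2 fold change of 0.40 did not pass (SE 0.17, 95% interval -0.01 to 0.81, limma adjusted p = 0.226). With the replicate block its adjusted p was 0.0361. Of the other 4 ELK3 probes, 2 were detected on a single FGF2 array each and 2 on none. ELK1 had 2 probes with intensities between 118.4 and 177.3 and no detection on any array, which leaves its level below what these arrays resolve. SRF, their DNA-binding partner, had a log2 fold change of 0.99 for FGF2 (SE 0.32, limma adjusted p = 0.121, or 0.000308 with the replicate block), and the SRF coactivators MKL1 and MKL2 were not detected well enough to be tested.

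The repressors ETV6 and ERF gave no change with FGF2 that passed the test. ETV6 measured 223.5 and 268.5 in -GFs, 239.2 and 265.8 with FGF2, and 168.4 and 200.8 with BMP4, where it was detected on neither array. The -GFs and FGF2 arrays were interleaved, with a log2 fold change of 0.08 (95% interval -0.38 to 0.55, limma adjusted p = 0.832). ERF measured 164.3 and 213.3 in -GFs, 219.7 and 207.1 with FGF2, and 167.3 and 230.8 with BMP4. These values overlapped in all 3 groups, with a log2 fold change of 0.19 for FGF2 (95% interval -0.32 to 0.70, limma adjusted p = 0.647), and the probe entered the test only through the FGF2 arrays. A second ERF probe had a log2 fold change of -0.10, opposite in sign.

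Across the 8 genes tested, the log2 fold change for FGF2 was above 0 for all, with a median of 0.49 against -0.02 over all genes, and this held with quantile, neqc and median scaling as well. It is a description of the genes that passed the detection filter, since the probes of ETV4 and ERF used here passed it through the FGF2 arrays alone. ETV6 was below 0 without -GFs replicate 1 or without FGF2 replicate 2, and ERF without -GFs replicate 1. The normalized -GFs and FGF2 values did not overlap in 6 of the 8, with FGF2 higher, against 24.6% of all genes. At the adjusted p alone, 3 of the 8 passed (ETV1, ETV4 and ETV5), against 6.03% of all genes. With the replicate number as a block, which pairs the wells of a replicate, ETS2 (limma adjusted p = 0.00124) and ELK3 (0.0361) passed as well, giving 5 of 8 against 18.1% of all genes, while the genes past both thresholds stayed 2. The smallest two-sided p that an exact permutation test of 2 arrays against 2 allows is 0.333, so single genes were judged by limma alone. In a bulk culture, fewer cells of a type and less RNA per cell cannot be told apart.

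**Figure D3:**
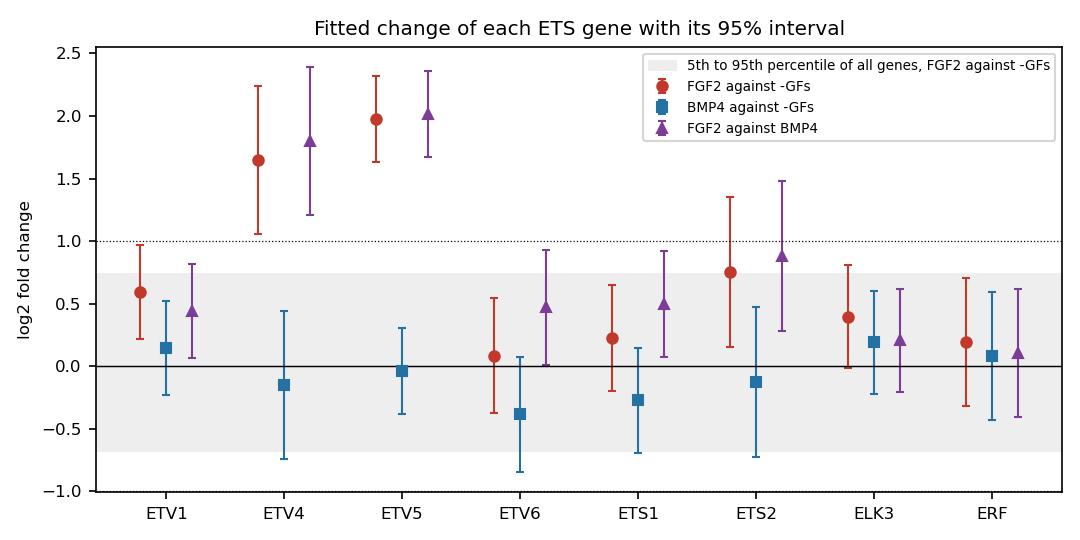
Fitted log2 fold change of each ETS gene tested, with its 95% interval, for FGF2 against -GFs (circles), BMP4 against -GFs (squares) and FGF2 against BMP4 (triangles); dotted lines mark the fold threshold of 1 and the grey band the 5th to 95th percentile of all genes for FGF2 against -GFs. Only ETV4 and ETV5 lie with their whole intervals above 1 in both comparisons that involve FGF2, and every BMP4 interval includes 0.

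With BMP4 no ETS gene passed the test. None of the 8 was called by limma or by the methods' t-test, against 0.00842% of all genes (1 gene), all had a limma adjusted p of 0.999, and 0 of the 8 had an unadjusted p below 0.05. The log2 fold changes ran from -0.39 for ETV6 to 0.19 for ELK3, with 3 above and 5 below 0 and a median of -0.08 (0.00 over all genes). For ETV5 the interval was -0.38 to 0.31 and for ETV4 -0.74 to 0.44, so that a rise of the size seen with FGF2 lies outside both. ETV6 had only a bound with BMP4, and by group means -GFs was at least 1.26-fold higher. The bound leaves out the spread between arrays, and the measured log2 fold change had a 95% interval of -0.85 to 0.08. In normalized values, ETV6 and ETS1 (log2 fold change -0.27, 95% interval -0.69 to 0.15) were lower and ETV1 higher (0.15) on both BMP4 arrays than on either -GFs array, 3 of 8 without overlap against 24% of all genes. The raw ETV1 intensities of these arrays overlapped. The signs for ETV4, ETV5, ETS2 and ERF turned when single arrays were left out.

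FGF2 and BMP4 were also compared directly, on the arrays already used above. The genes called were again ETV5 and ETV4. ETV5 was 4.04-fold higher with FGF2 than with BMP4 (log2 fold change 2.01, SE 0.14, limma adjusted p = 0.00275) and ETV4 3.48-fold higher (1.80, SE 0.25, limma adjusted p = 0.0156). These were 2 of 8 genes called, against 2.03% of all genes, and ETV4 was again not called without FGF2 replicate 2 (limma adjusted p = 0.157). In normalized values, the FGF2 arrays exceeded the BMP4 arrays without overlap in 7 of 8 genes, ERF being the exception, against 24.1% of all genes. Counts in this comparison describe the genes that passed the detection filter. The probes of ETV4 and ERF used here passed it through the FGF2 arrays alone. With the replicate block 6 of the 8 passed the adjusted p, against 16.3% of all genes. They were ETV4 and ETV5 together with ETS2 (limma adjusted p = 0.000366), ETS1 (0.0199), ETV6 (0.0202) and ETV1 (0.0301). Without the block only ETV4 and ETV5 passed it. The limma adjusted p was then 0.109 for ETS2, 0.171 for ETV1, 0.173 for ETS1 and 0.228 for ETV6. ETV6 was detected on neither BMP4 array, so its level there was a bound, which the FGF2 mean exceeded 1.34-fold. Spread between arrays is not part of this ratio. The measured log2 fold change was 0.47, with a 95% interval from 0.009 to 0.93.

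No other ETS gene on the array passed the test with FGF2. Of 17 listed, 16 had a probe and 5 could be tested, of which 0 passed the adjusted p in limma and 1, GABPA, had an unadjusted p below 0.05. Their log2 fold changes were -0.35 for ELF1, -0.05 for ELF3, 0.11 for ELF2, 0.29 for ELF4 (listed as BC042423) and 0.44 for GABPA, the subunit of GA-binding protein that contacts DNA (limma adjusted p = 0.170, or 0.0227 with the replicate block). ELK4, the haematopoietic factors SPI1 and SPIB and the endothelial factors ERG, FLI1 and ETV2 were among those detected on no array.

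Known regulators of the PEA3 group gave no change at the mRNA level that passed the test without the replicate block. CIC itself had a log2 fold change of 0.04 for FGF2, its cofactors ATXN1 and ATXN1L both -0.09, and RFWD2, which encodes the ubiquitin ligase COP1 that targets ETV proteins for degradation, 0.16. DET1, an adaptor of that ligase, had -0.32 (95% interval -0.67 to 0.02) and was detected on neither FGF2 array. By group means, this makes -GFs at least 1.07-fold higher. DET1 passed the adjusted p with the replicate block (limma adjusted p = 0.0887). The 5 adjusted p-values in limma ran from 0.239 to 0.920, and 0 of the 5 had an unadjusted p below 0.05. These are mRNA levels, and CIC activity and protein stability were not measured.

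Upstream, in the chain from FGF receptor to ERK, 20 of 25 listed components were tested. With FGF2, 2 were down-regulated and none up-regulated (3.53% of all genes were called in either direction). FGFR2, a receptor, fell by 1.29 on the log2 scale (SE 0.17, limma adjusted p = 0.0114), and GAB1, a docking protein that couples receptors to RAS and PI3K, fell by 1.06 (SE 0.18, limma adjusted p = 0.0231). Past the adjusted p but not the fold threshold were RPS6KA3, an ERK-activated kinase (log2 fold change 0.51, limma adjusted p = 0.0922), and ARAF, a RAF kinase (-0.70, limma adjusted p = 0.0582), where 11.8% of all genes passed the adjusted p in either direction. With the replicate block 9 of the 20 passed the adjusted p in limma, 5 higher and 4 lower, against 37.7% of all genes in either direction. None passed in limma with BMP4, where 0 had an unadjusted p below 0.05, and FGFR1, the other receptor tested, had a log2 fold change of -0.25 with FGF2 (limma adjusted p = 0.615).

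The genes most like ETV5 and ETV4 over the 6 arrays were sought by the root mean square difference between log2 profiles, each centred on its own mean. For ETV5 these were SRXN1 (0.063), which encodes sulfiredoxin, FRMD4A (0.10) and LOC100047260 (0.128). For ETV4 they were RGS16 (0.095), a regulator of G protein signaling, MICAL2 (0.121) and LOC100047260 (0.161). Their log2 fold changes for FGF2 ran from 1.55 for RGS16 to 2.01 for FRMD4A. Since these genes were chosen by likeness on the same arrays, values near those of ETV5 and ETV4 follow from the choice. ETV4 itself stood 39th among all genes in likeness to ETV5, at 0.279, with the offset between replicates in ETV4 that ETV5 lacked.

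**Figure D4:**
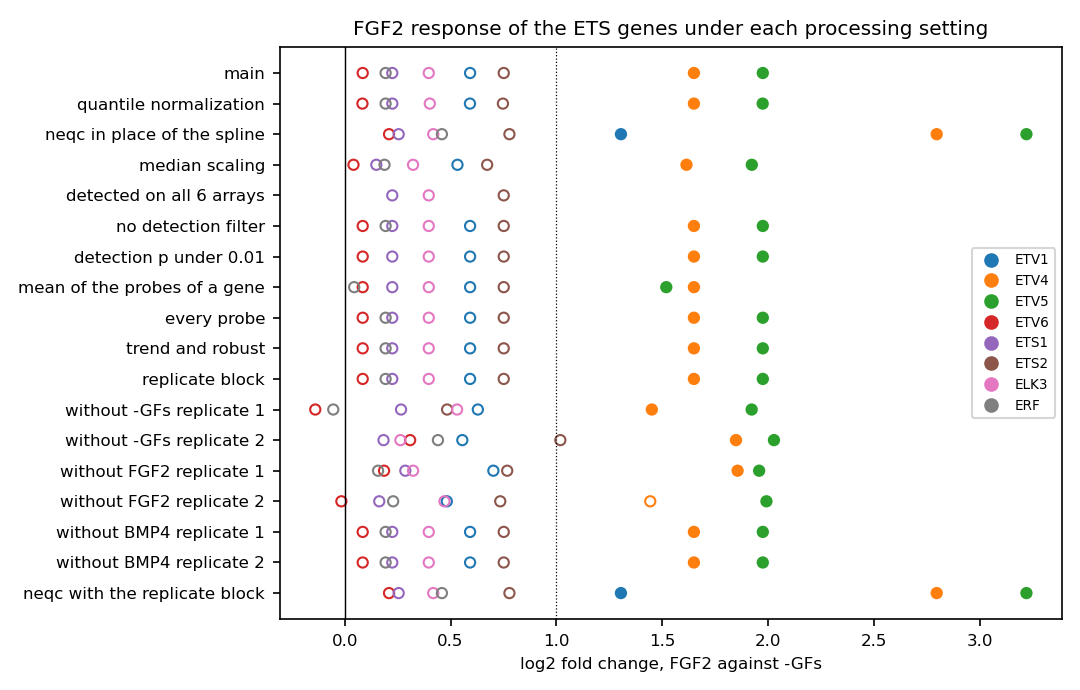
Log2 fold change for FGF2 against -GFs of the 8 ETS genes tested under each processing setting, with filled points where a gene passed both thresholds and a dotted line at the fold threshold of 1. Of the settings drawn, all of them limma fits, ETV5 is called in each that tested it, ETV4 in each of those but the one without FGF2 replicate 2, and ETV1 only with neqc, with or without the replicate block; with detection required on all 6 arrays, ETV1, ETV4, ETV5, ETV6 and ERF are not tested.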

How the data were processed

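RNA of pure PA6 cultures was measured on 6 arrays, 2 per group, grouped by the labels. The authors deposited non-normalized intensity values, the mean bead brightness per probe, with a detection p-value. Per the labels and methods, scans were processed with BeadStudio and GenomeStudio 2011.01. Of the table, 9 unheaded columns of values and 6 leftover lines were not used. The array's own gene names were kept.

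The methods' cubic spline normalization was written anew in R 4.3.3 (452 quantiles per array, mapped onto the mean quantiles), values were converted to log2, and 16111 probes detected (p below 0.05) in both replicates of some group were kept. The probe of highest mean stood for its gene. The model of limma 3.58.1 (lmFit, then eBayes) took in all 6 arrays, without a block (3 residual degrees of freedom), with Benjamini-Hochberg adjustment over all 11872 genes. Where neither array of a group detected a probe, its level there is a bound. The procedure was tested on simulated data with independent arrays, which does not check it for deviations shared within a replicate.

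By the labels, replicate numbers pair the arrays, since each biological replicate held 1 well of each group. Arrays of the same number deviated together (across genes, r = 0.602 between -GFs and FGF2, 0.741 between -GFs and BMP4, and 0.579 between FGF2 and BMP4).

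The genes and lists were chosen with earlier results of these data known. All probes of the 9 genes are given, list genes past the test are named, except for an item that is not reported here, and the like genes are the 3 nearest to each called gene. Alternatives were other normalizations, detection filters, probe choices, call rules, the replicate block and leaving out each array. Two-sided tests were used. The number of arrays limits the precision.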

Additional observations from a re-analysis of the deposited data

How the results depend on the processing

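Calls among the ETS genes held (2 for FGF2 against -GFs, 2 for FGF2 against BMP4, 0 for BMP4) with quantile normalization, median scaling, a detection p under 0.01, no detection filter, the mean of a gene's probes, and limma's trend and robust options, and the replicate block changed no call of these genes. With neqc, ETV1 made it 3 for FGF2 against -GFs, and with neqc and the block ETV6 made it 3 for FGF2 against BMP4. With detection required on all 6 arrays the count was 0 in both comparisons with FGF2, since ETV4 and ETV5 were then not tested, and leaving out single arrays gave 1 to 2. The unpaired t-test, which the methods do not give for the arrays, called 2 unadjusted in each comparison with FGF2. After Benjamini-Hochberg adjustment it called 0 of these genes and 0 of all genes.

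Over all genes, FGF2 against -GFs had 419 calls, 794 with neqc, 1143 with neqc and the replicate block (chosen after seeing the data), 1402 without the fold threshold, and 104 to 444 without single arrays (104 without FGF2 replicate 2, 179 without FGF2 replicate 1). Median scaling turned its split from 271 higher and 148 lower into 208 and 209. FGF2 against BMP4 had 365 calls, with 640, 987 and 1076 in the same settings, and 93 to 387 without single arrays (93 without FGF2 replicate 2, 124 without FGF2 replicate 1). BMP4 against -GFs had 1 call, 2 without a detection filter, 2 with trend and robust, 10 with the replicate block, 8 by the unadjusted t-test, 0 after adjustment, and 0 to 2 without single arrays. The causes were not tested.

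No reversed value had passed the test. For ERF with BMP4 the log2 fold change was -0.18 as the mean of its probes. Without single arrays it ran from -0.14 to 0.31 for ETV6 in FGF2 against -GFs, -0.054 to 0.44 for ERF in FGF2 against -GFs, -0.16 to 0.33 for ERF in BMP4 against -GFs, -0.40 to 0.11 for ETV4 in BMP4 against -GFs, -0.11 to 0.032 for ETV5 in BMP4 against -GFs, -0.41 to 0.16 for ETS2 in BMP4 against -GFs, and -0.071 to 0.29 for ERF in FGF2 against BMP4.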
